A study of Mus musculus with 2 samples.

Results

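Early suprabasal cells of the wild-type mouse esophagus at E18.5 (days of embryonic development) were 903 cells, 15.6% of the 5787 wild-type cells that passed the filter on cells and part of 8209 such cells in both libraries. They were chosen by their own transcripts. The keratins Krt13 and Krt4 had to sum to 60 or more and under 200 CP10K, that is UMIs (unique molecular identifiers, 1 per captured transcript) per 10000 UMIs of the cell. The 5 surface-layer genes Cnfn, Nccrp1, Crct1, Ltf and Ppbp had to stay under 4 CP10K, the 4 mitosis genes Mki67, Top2a, Nusap1 and Ube2c under 10, and the 5 cilium genes Dnah12, Spag16, Rp1, Dynlrb2 and Cfap54 under 10. Of 1005 cells within the keratin bounds, 102 were left out, 50 of them over the surface-layer limit, 48 over the mitosis limit and 6 over the cilium limit (a cell can exceed 2 limits). A class cut in this way is a range on a score, not a type. Members are described beside 2792 cells under 40 CP10K of Krt13+Krt4 (low-keratin cells) and 627 cells at 200 or more (high-keratin cells), both held to the same limits on the other genes. The 296 cells at 40 to 60 were kept apart.

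The epithelium of the esophagus is stratified. Basal cells rest on the basement membrane, divide and carry Krt5, Krt14, Krt15 and the transcription factor p63. Cells that leave this layer lose their integrin anchorage and stop dividing, and they strengthen their desmosomes and make Krt4 and Krt13, the keratin pair of moist stratified epithelia. In the Notch pathway a ligand on 1 cell (Jagged or Delta-like) binds a Notch receptor on the next, whose inner part is then cut free by gamma-secretase and acts with Rbpj on target genes such as Hes1 and Nrarp. In stratified epithelia this pathway is known for promoting the suprabasal program.

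The series has 1 library labelled wild type, of genotype p63-CreER, and 1 labelled p63-KO, of genotype p63-CreER/p63-CreER, both from C57BL/6 esophageal epithelium. Per the labels' protocols, muscle was pulled away and the epithelium was dissociated with dispase and trypsin before capture with a droplet kit that reads the 3' ends of transcripts. Both genotypes are labelled as carriers of p63-CreER. The number of embryos is not given, but 577 members held Xist and no Y-linked UMIs, 206 held Y-linked and no Xist UMIs, 97 held both and 23 neither, so at least 2 embryos were pooled. With 1 library per group, and with ranges cut on values of the same cells, no test was made: every ratio is a description, and every interval is a 95% interval for counting error only. The choice of ranges fixes the direction of Krt13 and Krt4 and of genes that follow them.

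Members had a median of 12017 UMIs (lowest 1004, highest 127156) and 3928 genes, against 9630 UMIs in low-keratin and 14521 in high-keratin cells. The median mitochondrial share was 3.05% (3.15% in low-keratin and 2.93% in high-keratin cells) and that of ribosomal protein transcripts 20.5% (20.9% and 17.2%). A total of 8 barcodes occurred in both libraries, 2 of them in members. Levels below are CPM, UMIs summed over the cells of a range per 1000000 UMIs of that range, and ratios are log2 of CPM + 1. Libraries of this kind count transcript ends, so CPM was not divided by gene length, but whether introns were counted is not given. Genes reaching 20 CPM in either of 2 ranges are called measured, and at least 2-fold apart is the size used for counts.

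All 5 markers of the class were found in the members, although Krt13 and Krt4 are also the genes of the rule. Krt13 stood at 904 CPM in low-keratin, 7510.2 in early suprabasal and 17739 in high-keratin cells, and Krt4 at 745, 5069.9 and 11968 CPM. All 903 members had Krt13 of at least 10 CP10K and 893 also Krt4, so both keratins ran together in nearly every cell. Krt13 made up a median of 61.8% of the summed keratins in a member (90th percentile of cells 74.7%). The other 3 markers were each highest in the members. The rule did not read them, but the class and its markers were chosen with earlier results of these data known, so this is no independent evidence.

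Notch1, the receptor, was at 63.2 CPM (95% Poisson interval 60.2 to 66.2) in low-keratin cells, 198 (190.1 to 205) in members and 109 (102 to 115) in high-keratin cells. In CPM with nothing added, that is 3.13-fold (2.94 to 3.33) above the low and 1.82-fold (1.70 to 1.95) above the high range. Kcne3, a small regulatory subunit of potassium channels, was at 1.80 CPM, 23.9 (21.3 to 26.7) and 10.8 CPM, from 50, 314 and 117 UMIs. It was 2.21-fold (1.78 to 2.76) above the high range, and its log2 ratio to the low range was 3.15, from only 50 UMIs there. Krtdap, a small secreted protein of differentiating keratinocytes, was at 47.9, 207 and 159.6 CPM, 4.32-fold (4.05 to 4.62) above the low range and 1.30-fold (1.22 to 1.38) above the high range. The CPM intervals of all 3 genes were apart between the members and both other ranges.

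The 3 markers differed in how many members carried them. Notch1 had a UMI in 80.2% of members, Krtdap in 60.6% and Kcne3 in 24.8%. Since depth differed between the ranges, each cell was also thinned to 2000 UMIs, which left 2740 low-keratin, 885 early suprabasal and 620 high-keratin cells. Thinned shares for Notch1 were 10.7%, 29.3% (95% exact interval 26.3% to 32.4%) and 17.4% (14.5% to 20.6%). They were 8.14%, 27.1% (24.2% to 30.2%) and 22.9% (19.7% to 26.4%) for Krtdap, and 0.365%, 5.20% (3.83% to 6.87%) and 3.39% (2.11% to 5.13%) for Kcne3. At equal depth the members' share was thus apart from the high range for Notch1, while the intervals overlapped for Krtdap and Kcne3. In 524 fibroblasts of the p63-KO library, cells that should lack keratinocyte transcripts (median 11090.5 UMIs), the thinned shares were 4.20%, 3.63% and 0.382%, against 17.7%, 22.9% and 1.72% unthinned. Only 25 multiciliated cells of the wild-type library could be thinned (median 23666 UMIs), where Notch1 and Krtdap were each at 4.0% and Kcne3 at 0%, which allows up to 13.7%. So the members' shares of Notch1 and Krtdap were above those of the multiciliated cells, with intervals apart. That of Kcne3 could not be told from these 25 cells. Members were above the fibroblasts for all 3 genes, and the low-keratin share of Kcne3 was no higher than the fibroblasts'. But the fibroblasts come from the p63-KO library, where epithelial levels of these genes differ (below), so they set no floor for wild-type cells. Per member, the median level was 1.78 CP10K for Notch1 (highest 10.7), 0.894 for Krtdap (highest 23.6) and 0 for Kcne3 (highest 8.19).

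Cells were then placed in 11 bins of Krt13+Krt4. Notch1 climbed from 48.4 CPM at 5 to 10 CP10K to 139 at 40 to 60, was at 201, 210.1 and 179 in the members' bins of 60 to 100, 100 to 150 and 150 to 200, and was down to 57.9 at 400 and above. Kcne3 ran 9.76, 22.6 and 29.6 CPM from the bin of 40 to 60 up to that of 100 to 150, and 13.6 at 200 to 300. Krtdap peaked later, with 173, 222 and 225 CPM in the members' bins and 200.2 at 200 to 300, before 67.4 at the top. All 3 genes therefore had their highest bin inside the members' range, Notch1 and Kcne3 in the middle bin and Krtdap in the last, although the middle and the last bin of Krtdap differed by less than counting error, as did the first 2 of Notch1. The members' bins held 322, 322 and 259 cells.

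**Figure D1:**
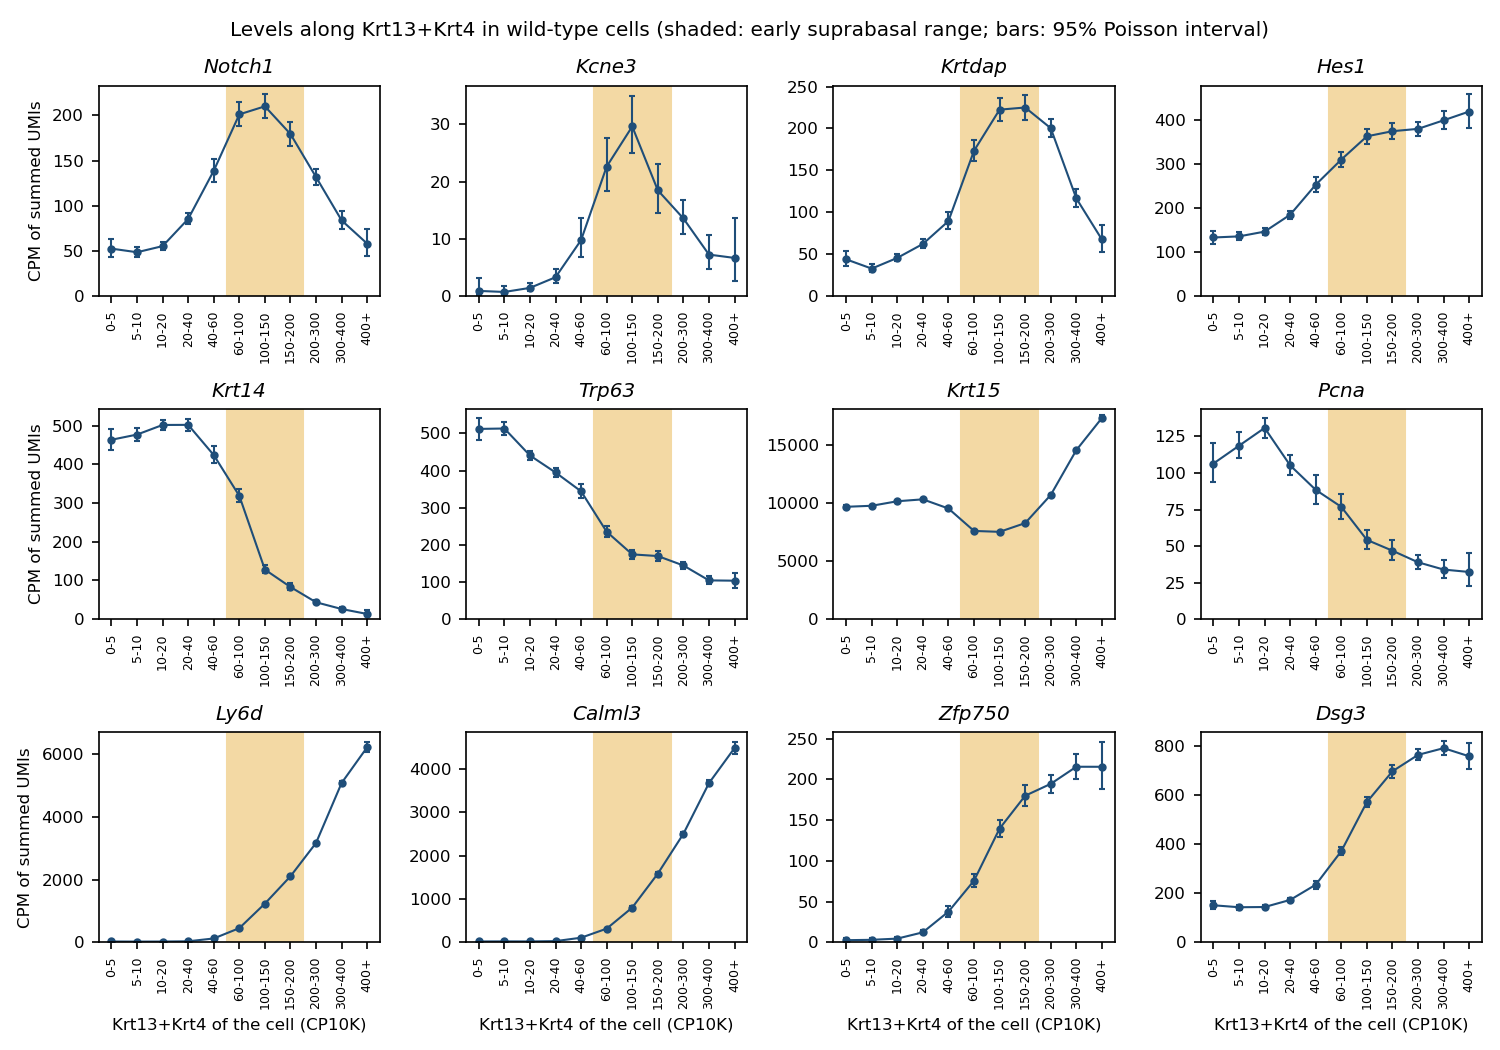
Levels of 12 genes (CPM of summed UMIs, y axis from 0) in 11 bins of Krt13+Krt4 per cell (x axis, CP10K), wild-type library; shading marks the early suprabasal range and bars are 95% Poisson intervals. Notch1, Kcne3 and Krtdap have their highest bin inside the shaded range, Krt15 has its lowest bin there, and Ly6d, Calml3 and Zfp750 climb through it.

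Values on either side of the bounds were as follows. Just below the lower bound (55 to 60 CP10K, 52 cells) Notch1 was at 168 CPM and just above it (60 to 65, 55 cells) at 165. Krtdap was at 77.3 and 69.5 CPM there, Kcne3 at 12.1 and 22.0, Krt5 at 922 and 914 and Krt14 at 437 and 462. Just inside the upper bound (190 to 200, 49 cells) and just outside it (200 to 210, 48 cells), Notch1 was at 183 and 143 CPM, Krtdap at 241 and 207, Kcne3 at 23.1 and 17.4 and Krt14 at 67.1 and 106. Thus 55 members lay within 5 CP10K of the lower and 49 within 10 CP10K of the upper bound, and 37 members had surface-layer genes of 2 to 4 CP10K, near that limit, while 753 had no surface-layer UMI.

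Among 7619 genes measured in at least 1 comparison, 9 (0.118%) were highest in the members by at least 1.5-fold over both other ranges, and 0 (0.0%) were lowest by that margin. These counts were 28 and 9 when the low and high ranges were taken by keratins alone, and 32 and 14 in the 206 members with Y-linked and no Xist UMIs and the matching cells of the other ranges. Kcne3, Notch1, Slit3, Gm1968, Mctp1, Fzd6, Mfge8, Ldlrad3 and Aff1 made up the 9. Kcne3 alone exceeded 2-fold over both. Slit3, a secreted guidance protein, was at 7.65 CPM in low-keratin cells, 34.2 in members and 18.8 in high-keratin cells. Fzd6, a Frizzled receptor known for planar polarity of skin, was at 55.8, 105 and 67.6 CPM. Ldlrad3, a membrane protein, was at 182, 276 and 116 CPM, and Mfge8, a secreted bridge between integrins and phosphatidylserine, at 118, 181 and 114. Aff1, a scaffold of the transcription elongation machinery, was at 96.4, 181 and 120.1 CPM. It was under 1.5-fold with totals that omit the 50 most abundant genes, with shallower cells removed, or with 5 CPM added, and Mfge8, Aff1 and Gm1968 did not reach it in cells with Xist and no Y-linked UMIs.

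Genes under 1.5-fold against at least 1 range were ranked by the same measure, but only above a floor in members higher than 20 CPM. Lrpap1, Srgap2, Ugt8a, Mapk6, Rassf10 and Fam83b came first among them, and genes at lower levels were not ranked. Rassf10 was at 43.0, 86.0 and 64.3 CPM and Srgap2, which shapes membrane protrusions, at 141, 196 and 139. The opposite pattern was shallow. Krt15, a basal keratin, was at 10062 CPM in low-keratin cells, 7759 in members and 12588 in high-keratin cells, so its level in members was 1.30-fold under the low and 1.62-fold under the high range. By bins it was lowest at 100 to 150 CP10K (7501 CPM) and reached 17282 at the top. Dap, Hist1h1c, Psmd8, Psmc5 and Cers6 also had their lowest level in members, for example Psmd8 (a proteasome subunit) with 192, 155 and 194 CPM.

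Likeness to the markers was measured as Pearson's r of log2(CPM + 1) over the 11 bins, which share the library and, in part, the ordering by keratin. The genes most like Notch1 were Atp1b3 (r = 0.966), Net1 (0.958) and Fzd6 (0.958). Kcne3 was most like Iqgap1 (0.982), Mapkap1 (0.977) and Atp1b3 (0.977), and Krtdap most like Vcl (0.975), Klf12 (0.974) and Atp1b3 (0.974). Atp1b3, a subunit of the sodium pump, stood in all 3 lists.

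For most genes the members' levels lay between those of the other ranges. Of 7619 genes, 4177 (54.8%) ran downward from low to early to high, 1970 (25.9%) upward, 961 were highest and 511 lowest in the members by any margin. Of 2254 genes at least 2-fold apart between the low and the high range, 2226 were in between in the members, 26 were past the high level and 2 beyond the low level.

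Neighbours were found without the 16 genes of the rule, among the 20 nearest cells in 30 principal components of 2000 variable genes. Members made up 68.4% of their own neighbours, against 15.6% of all cells, and low-keratin cells gave 8.19%, cells at 40 to 60 CP10K 7.86% and high-keratin cells 12.2%. The make-up shifted across the range. From 60 to 100 CP10K, 20.7% of neighbours were low-keratin and 1.69% high-keratin, and from 150 to 200 it was 0.483% and 29.1%. Most neighbours were members for 649 cells (71.9%), low-keratin for 55, high-keratin for 55, and no range held a majority for 144. All genes other than those of the rule come from the same cells, so this is a description and not an independent test.

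**Figure D2:**
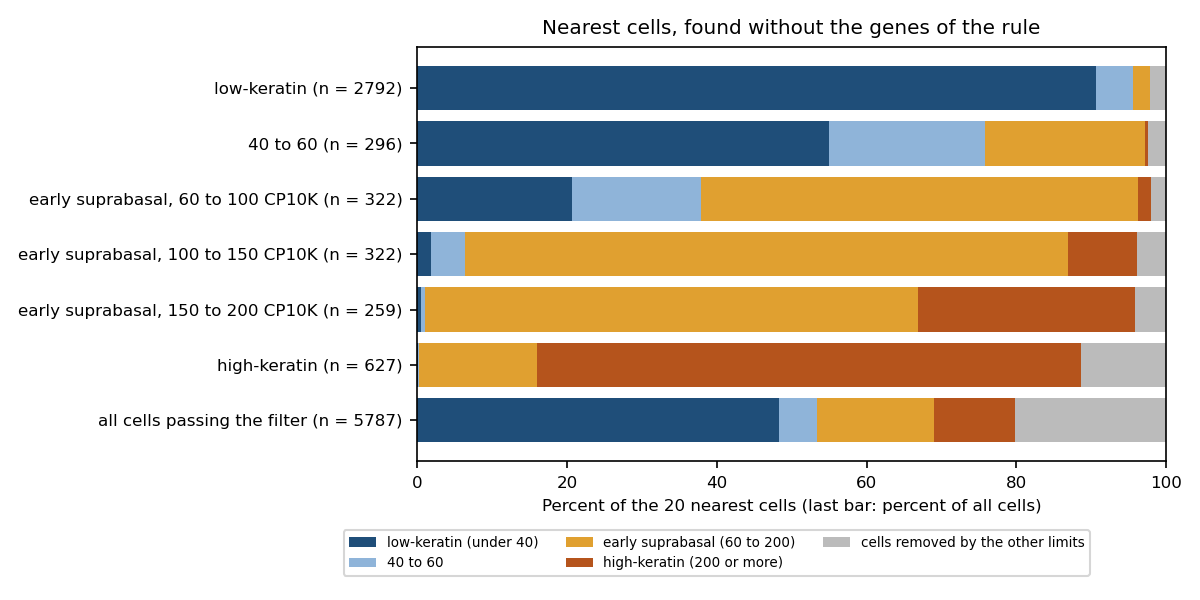
Composition of the 20 nearest cells (x axis, percent of neighbours) for each range of Krt13+Krt4 in wild-type cells, with the make-up of all 5787 cells as the last bar. Members of 100 to 150 CP10K had 80.6% members among their neighbours, and those at either end shared more neighbours with the adjoining range.

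The question of what separates members from low-keratin cells was addressed across 7397 measured genes. Of these, 510 (6.89%) were at least 2-fold higher and 457 (6.18%) at least 2-fold lower in members, together 13.1%. The median log2 ratio was -0.14. The highest ratios were those of Ly6d, a GPI-anchored surface protein, at 27.5 CPM in low-keratin cells and 1242 in members (log2 ratio 5.45), Mal, a lipid raft protein of apical transport (11.2 and 507, 5.38), and Calml3, a calmodulin-like protein of epithelia (23.1 and 881, 5.19). Hopx, a homeodomain protein without DNA binding, followed with 8.66 and 338 CPM (5.14). Tgm3, the transglutaminase that crosslinks envelope proteins, was at 2.60 and 119 CPM (5.06). Alox15 (4.78), Pdzk1ip1 (4.75), Lypd3 (4.71), Upk3a (4.61) and Rbp2 (4.46) completed the 10 highest of the ranking, which did not take in Upk2 (4.49). Each of these 10 ranked genes was higher again in high-keratin cells.

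These genes entered at different places. Ly6d was at 33.0 CPM at 20 to 40 CP10K and 123 at 40 to 60, then 452, 1234 and 2105 in the members' bins. Zfp750, a transcription factor of epidermal differentiation, was at 12.3 CPM at 20 to 40 CP10K, 75.7, 139.6 and 179.8 in the members' bins, and 215 at 300 to 400. Its level was thus nearly level above the members' range, where Ly6d was still climbing to 6217.

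Squamous differentiation genes were the list furthest from the low range. In members 24 of 26 measured genes exceeded 2-fold upward and none downward (0), and the list's median was 2.49 on the log2 scale. The class marker Krtdap is among the 24. Beside the counts of this and later lists stand 6.89% higher and 6.18% lower among all genes measured against low-keratin cells. Sbsn (suprabasin) was at 19.8, 288 and 645 CPM in low-keratin, early suprabasal and high-keratin cells, Krt6a at 129.6, 698 and 2006, and Dmkn (dermokine) at 94.3, 724 and 1196. The envelope scaffolds Ppl and Evpl were at 119, 447 and 868 CPM and at 34.5, 199 and 494. Of the small proline-rich envelope proteins, Sprr1a was at 2.92, 82.1 and 343 CPM and Sprr3 at 1.66, 37.5 and 127. Against the high range, 0 of 29 measured genes of the list were 2-fold higher and 17 lower, beside 3.98% and 2.61% of 6858 genes (6.59% in either direction).

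Desmosome genes lay nearer to the high than to the low range. Of 8 measured desmosome genes, 6 were at least 2-fold higher than in low-keratin cells (median log2 ratio 1.48) and 0 were 2-fold apart from high-keratin cells (median -0.36). Dsc2, a desmosomal cadherin, was at 43.7, 313 and 548 CPM, and Dsg3 at 154, 544 and 773. The plaque proteins Dsp (512, 1409.9 and 1805 CPM) and Jup (185, 529.8 and 682) ran the same way, while Pkp3 was at 70.9, 74.9 and 77.0 and Dsg2 at 92.3, 86.0 and 55.1. Among 21 measured genes of adherens, tight and gap junctions, 10 were higher and 2 lower. Cdh1 (E-cadherin) was at 178, 512 and 635 CPM and Cdh3 (P-cadherin), the basal counterpart, at 105, 41.2 and 11.4. The claudins split alike, with Cldn3 at 7.54, 118 and 423 CPM and Cldn1 at 33.4, 16 and 11.1.

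Many genes of the basal layer were lower but present. All 7 basal markers (Krt5, Krt14, Krt15, Col17a1, Itgb4, Itga6 and Trp63) were above 20 CPM in members. Krt14 was at 494, 178 and 34.8 CPM in the 3 ranges and Krt5, its partner, at 1049.6, 658 and 364. The pair parted within the members: from the bin of 60 to 100 CP10K to that of 150 to 200, Krt14 went from 319 to 83.0 CPM and Krt5 from 843 to 471. Krt17 was at 428 CPM at 40 to 60 CP10K, 428 at 60 to 100 and 182 at 150 to 200. Thinned to 2000 UMIs, 20.6% of members held a Krt14 UMI (47.1% unthinned) and 66.6% a Krt5 UMI (95.3%), against 8.0% (0.984% to 26.0%) and 24.0% (9.36% to 45.1%) of the 25 wild-type multiciliated cells. The members' Krt14 share lay inside that interval and could not be told from it, and the Krt5 share (63.3% to 69.7%) lay above it. The p63-KO fibroblasts are no background for this pair, which was at or near 0 in that library. The basal list had 18 measured genes, with 6 past 2-fold downward and 1 upward. The 1 higher gene was Aqp3, the glycerol and water channel, at 104, 566 and 796 CPM.

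Anchorage to the basement membrane was lower without exception among the genes past 2-fold: 8 of 24 measured integrin, hemidesmosome and basement membrane genes were lower, 0 higher (median log2 ratio -0.73). Itga3 was at 56.3, 16.2 and 3.59 CPM, Itgb4 at 173, 83.1 and 22.0, and Hspg2 (perlecan) at 79.3, 21.4 and 2.95. The hemidesmosome collagen Col17a1 was at 361, 194 and 46.9 CPM. Likewise upward from the low range, the collagen IV chain Col4a5 was at 179, 228 and 199 CPM. Among all genes, the lowest ratios to the low range belonged to Smoc2 (340.4 CPM in low-keratin cells and 48.2 in members, log2 ratio -2.80), Col8a1 (141 and 22.0, -2.63), Dlk2 (107 and 17.2, -2.57), Sdk1 (-2.50), Vcan (-2.45), Pcsk5 (-2.37), Lhfp (-2.26), Plcb1 (-2.19), Thsd4 (-2.19) and Cadm1 (-2.17). Smoc2, Col8a1 and Vcan are matrix proteins, and Dlk2 is a non-canonical Notch ligand. Fibroblast markers ran the same way, with a sum of 101, 27.4 and 2.12 CPM and Col3a1 at 44.9, 9.27 and 0.645, and their part in these differences was not tested.

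**Figure D3:**
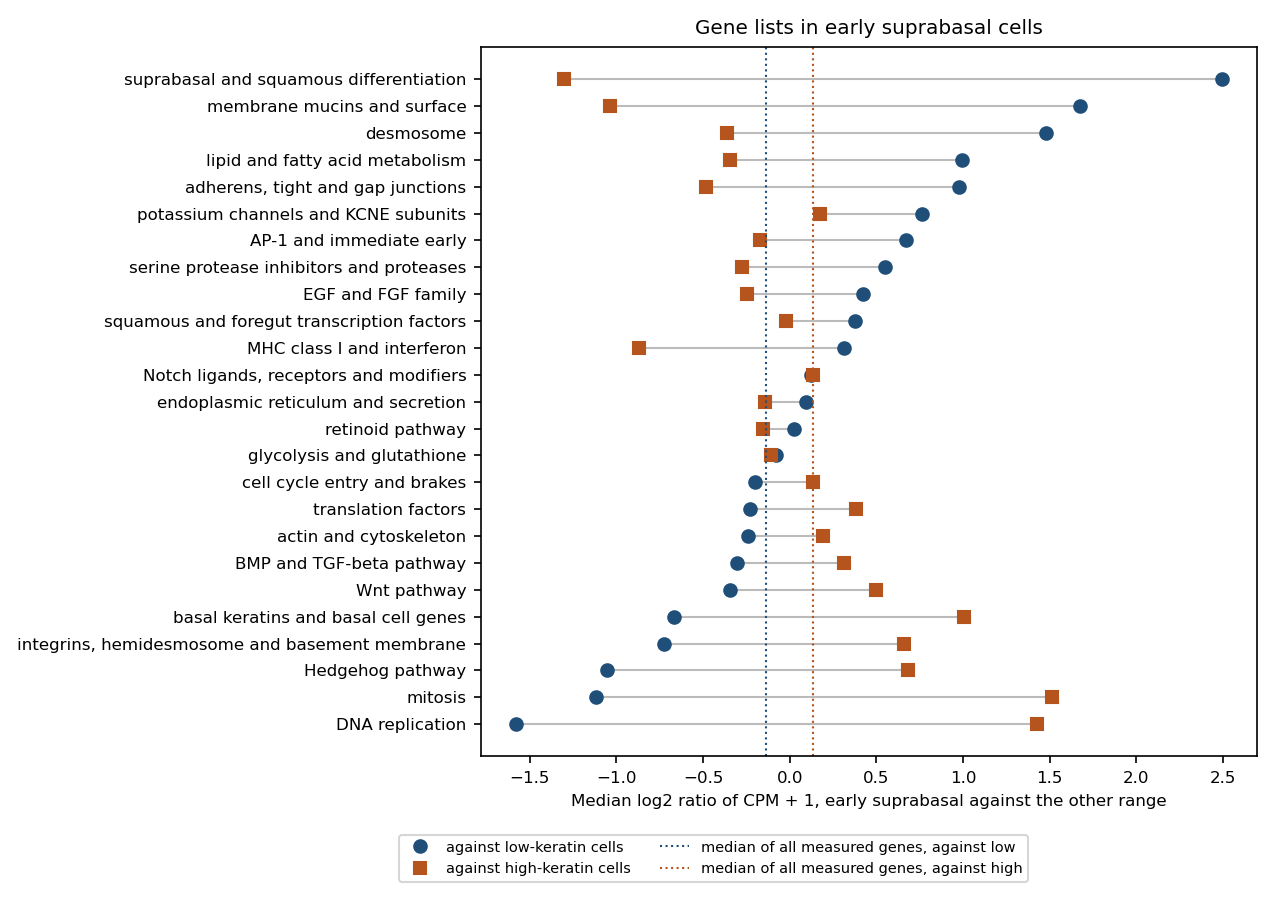
Median log2 ratio of CPM + 1 (x axis) over the measured genes of each list with at least 4 measured, in early suprabasal cells against low-keratin (circles) and against high-keratin cells (squares); dotted lines are the medians of all measured genes, -0.14 and 0.13. Squamous differentiation lies at 2.49 and -1.30 and DNA replication at -1.58 and 1.43.

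In the Notch pathway, ligands and receptors went different ways. Jag2 was highest in low-keratin cells, at 86.4 CPM, and stood at 21.2 (18.8 to 23.8) in members and 4.61 in high-keratin cells. Jag1 ran in the other direction, 17.1, 72.4 (67.9 to 77.2) and 94.4 CPM. The Notch-modifying glycosyltransferase Lfng followed Jag2, with 24.8, 4.86 and 0.83 CPM. Notch3 was at 22.5, 140.2 and 159 CPM and Notch2 at 83.6, 132 and 129, so that Notch1 alone of these 3 receptors was lower again in high-keratin cells beyond counting error. Of the 16 measured ligands, receptors and modifiers, 4 were at least 2-fold higher and 2 lower than in low-keratin cells. The higher ones include Notch1, a marker of the class. Rbpj itself was at 63.6, 38.8 and 29.4 CPM.

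Of 8 target genes on the list, 2 were measured and both were 2-fold higher in members. Hes1 was at 155, 349.8 and 391 CPM and Nrarp, a feedback inhibitor of the pathway, at 6.53, 54.3 and 80.3. By bins, Hes1 stood at 185 CPM at 20 to 40 CP10K, 254 at 40 to 60 and 311, 364 and 375 in the members, and it did not come down with Notch1 (420.3 at 400 and above). The order of Jag2 and Jag1 turned at the lower bound: the pair was at 64.6 and 39.9 CPM at 40 to 60 CP10K, 37.3 and 55.3 at 60 to 100, and 10.3 and 89.2 at 150 to 200.

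Transcription factors of squamous and foregut epithelia also went both ways. Of 39 measured, 12 were at least 2-fold higher and 7 lower than in low-keratin cells, beside 6.89% and 6.18% of all measured genes. Against high-keratin cells it was 1 of 35 in each direction, near the 3.98% higher and 2.61% lower among all measured genes. Grhl1 was at 6.06, 57.2 and 75.9 CPM and Grhl3 at 13.6, 93.1 and 141, both Grainyhead factors of barrier formation. Zfp750 was at 6.56, 131 and 203 CPM, Prdm1 (Blimp1) at 2.42, 22.3 and 34.5, and the Ets factor Ehf at 56.8, 299.7 and 421. Trp63, the gene of p63, was at 447, 193 (186 to 201) and 127 CPM, with 235, 174 and 169.7 in the members' bins. Bcl11b (421, 183 and 94.1 CPM), Rora (237, 105 and 51) and Id3 (27.7, 9.81 and 2.58) ran in the same direction. Sox2 was at 251, 176 and 156 CPM, and Pax9 at 216, 226 and 249, a flatter course than that of Trp63.

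Among 13 measured AP-1 and immediate early genes, 4 exceeded 2-fold over low-keratin cells and 0 were under by that margin: Fos (269 and 602 CPM), Junb (132 and 291), Egr1 (95 and 198) and Zfp36 (37.0 and 148). Their levels in high-keratin cells were 630.4, 374, 197 and 178 CPM. Myc was at 28.6, 14.6 and 4.61 CPM.

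DNA replication genes, which the rule did not read, were lower in members than in low-keratin cells, and cells rich in 4 mitosis genes had been removed from all 3 ranges. The list had 19 measured members, 18 of them 2-fold or more under the low range and 0 over it (median log2 ratio -1.58). Mcm5, of the replicative helicase, was at 40.6, 10.6 and 1.94 CPM, Hells at 116, 34.2 and 5.81, and Pcna, the nineteenth gene, at 118, 59.4 and 36.6. After thinning to 2000 UMIs, at least 2 UMIs of 10 replication genes were seen in 31.3% of low-keratin cells, 8.70% (6.93% to 10.8%) of members and 1.61% of high-keratin cells. That share was 9.35% in the p63-KO fibroblasts, which can divide, and 4.0% in the 25 multiciliated cells, which do not. Cyclin D1 (Ccnd1) was at 268, 87.4 and 15.7 CPM and Ccnd2 at 879.6, 394 and 152. Of 16 measured genes of cell cycle entry and its brakes, 1 was higher and 5 were lower. The 1 higher gene was Cdkn1a (p21), an inhibitor of cyclin-dependent kinases, with 76.0, 331 and 509.6 CPM. The inhibitors Cdkn1b and Cdkn1c were at 23.8, 28.4 and 25.8 CPM and at 134, 132 and 198. Cdkn2b ran upward, with 0.541, 17.3 and 36.9 CPM and a log2 ratio of 3.57 to the low range. It stayed under 20 CPM in low-keratin cells and members, so it was not among the measured genes of that comparison.

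Signalling lists are given beside 6.18% lower and 6.89% higher among all measured genes. In the Wnt list 6 of 17 measured genes stood 2-fold or more under the low range and 0 over it: Lef1 was at 22.1, 3.34 and 0.553 CPM, Wnt10a at 147, 44.6 and 6.64, and Lgr5 at 76.9, 24.8 and 2.40. The ligand Wnt4 was at 699, 833 and 900.1 CPM. Of 5 measured Hedgehog genes 3 were lower, with Shh at 39.2, 10.9 and 2.67 CPM and Gli3 at 115, 26.7 and 4.89. In the BMP and TGF-beta list 2 of 17 were lower and 0 higher, with a median of -0.30 beside -0.14 for all genes, which is near the background. EGF and FGF family genes gave the opposite count, with 6 of 15 higher and 0 lower. The EGF receptor ligands Areg (3.75, 51.2 and 138 CPM), Hbegf (19.2, 86.0 and 124) and Btc (5.99, 32.8 and 56.2) and the receptor Erbb3 (39.7, 107 and 138) were among them, whereas Egfr was at 244, 265 and 219 CPM and Fgfr2 at 878, 484 and 225.

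Lipid genes were higher in 11 of 22 measured and lower in 0. Members held the cholesterol enzymes Sqle (42.6, 113 and 168 CPM) and Lss (8.62, 38.8 and 56.8), and the triglyceride enzyme Dgat2 (10.1, 43.9 and 67.4). In the retinoid list 2 of 8 measured genes were higher and 1 lower, with the retinol carrier Rbp2 at 7.03, 176 and 449 CPM. The glutathione transferase Gsto1 was at 338, 2059.9 and 6717 CPM, while glycolytic genes such as Ldha (271, 253 and 289) differed by less than 2-fold. Membrane mucins and surface proteins were higher in 9 of 12 measured, Psca with 33.3, 712 and 2061 CPM and the urothelial plaque protein Upk1b with 62.5, 544 and 1435. Among potassium channel genes, Kcne3 and Kcnj15 (12.9, 35.0 and 48.3 CPM) were the 2 higher of 6 measured, and Kcnq5 was at 1873, 1247 and 342. Kcne3 is a marker of the class, chosen with earlier results known, so its place in that count is no evidence about the list. Of 14 measured protease and inhibitor genes 6 were higher and 0 lower. Smaller counts came from cytoskeleton (0 higher and 3 lower of 17), MHC class I and interferon (1 and 0 of 4), translation (0 and 0 of 15) and secretion (0 and 0 of 14).

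Against high-keratin cells, 273 of 6858 measured genes (3.98%) were at least 2-fold higher and 179 (2.61%) at least 2-fold lower in members, together 6.59%. Over all measured genes the median ratio was 0.13 (log2). Higher genes were led by Cdh13 (T-cadherin), at 267 CPM in members and 40.5 in high-keratin cells (log2 ratio 2.69), Ptn (151 and 27.7, 2.40) and Sparc (106 and 19.4, 2.38), followed by Plcb1 (2.32), Krt14 (2.32), Col17a1 (2.02), Arhgap24 (1.97), Pdgfa (1.96), Bcam (1.93) and Nkain3 (1.91). All 10 were higher still in low-keratin cells. Lower genes so ranked were led by the protease inhibitor Serpinb11 (29.0 and 136 CPM, -2.19), the filaggrin-processing protease Asprv1 (110.3 and 488, -2.14), Sprr1a (-2.05), Ecm1 (-2.04), Serpinb3a (-2.04), Serpinb1a (-1.92), Arg1 (-1.84), Cldn3 (-1.83), Calml3 (-1.80) and Spink5 (-1.75). Serpinb3a belongs to a family of near-identical copies, so its count is uncertain. In both comparisons together, 159 genes were 2-fold above low-keratin and 2-fold below high-keratin cells, and 341 the reverse.

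How far the members had come along depends on the scale. On the log2 scale, 883 genes higher in the high range had covered a median of 70.1% of the way from the low to the high level, and 1371 genes lower in it 47.9%. Measured in CPM the order was the other way round, 52.1% and 64.0%. No order of gain before loss can therefore be read from these values.

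Single cells were compared by their summed levels of 2 lists. The integrin, hemidesmosome and basement membrane sum had a median of 29.5 CP10K in low-keratin cells, 18.6 in members (10th to 90th percentile 10.5 to 29.8) and 10.4 in high-keratin cells. By that sum, 410 members lay within the middle 80% of low-keratin cells, 363 within that of high-keratin cells and 130 in neither. The squamous differentiation sum was 39.1, 119.7 (66.3 to 211) and 316 CP10K, and 751 members (83.2%) lay in neither middle 80%. Krt14 and Calml3, each counted from 2 UMIs, were found together in 111 members (12.3%), Krt14 alone in 178, Calml3 alone in 350 and neither in 264. Independence of the 2 genes would give 16.3% with both over all members, but the genes run in opposite directions along the range. Within bins the shares with both were 9.63%, 12.7% and 15.1%, beside 11.4%, 14% and 14.5% under independence. In low-keratin cells both were found in 2.11% and in high-keratin cells in 8.77%. A score for likely doublets marked 77 of 903 members, 61 of 2792 low-keratin, 21 of 627 high-keratin and 268 of all 5787 cells. The marked share was thus larger in members than in either other range, and the part of such cells in these counts was not tested.

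**Figure D4:**
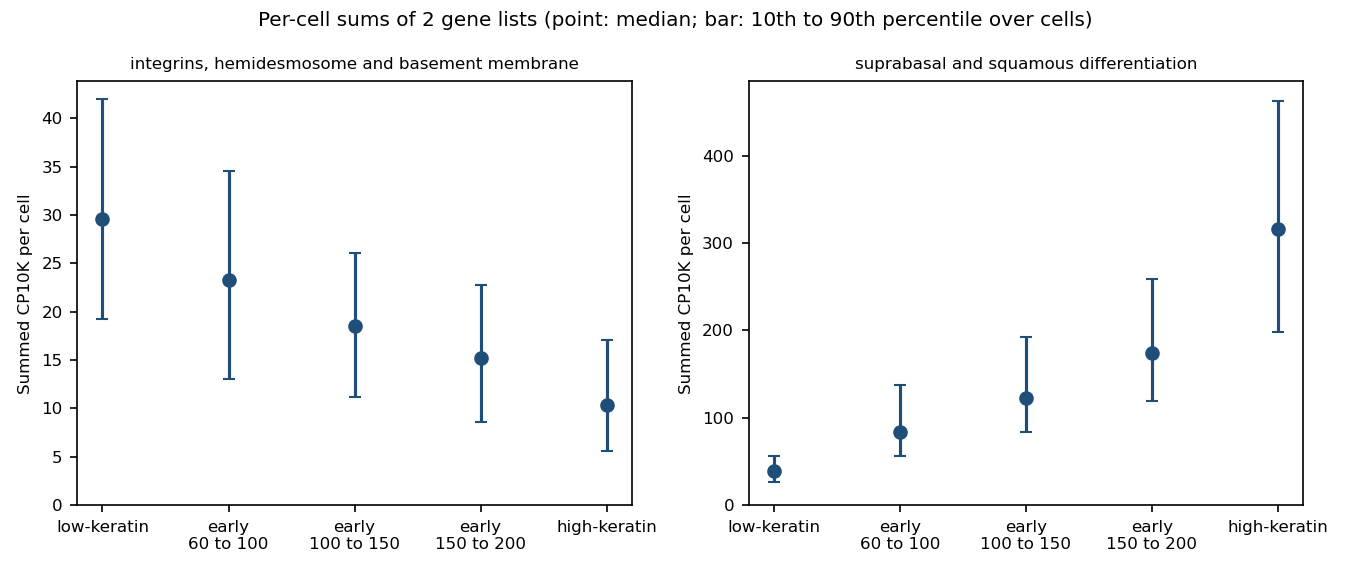
Summed CP10K per cell (y axis from 0) of the integrin, hemidesmosome and basement membrane list (left) and of the squamous differentiation list (right) in low-keratin, early suprabasal (3 bins of Krt13+Krt4) and high-keratin wild-type cells; points are medians and bars run from the 10th to the 90th percentile over cells, not over replicates. The integrin medians of the 3 bins of members run from 23.3 to 15.2 CP10K from the lowest to the highest bin and the squamous medians 83.1, 123 and 174.

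Markers of other cell types were near 0 in the members. None of 6 multiciliated, 5 fibroblast, 4 endothelial, 4 smooth muscle, 4 immune, 5 neuroendocrine, 4 mucous, 4 Schwann or neural, 3 melanocyte or 3 red blood cell markers reached 20 CPM. The largest sum was that of the fibroblast markers, at 27.4 CPM against 101 in low-keratin and 2.12 in high-keratin cells. Cdh5, Kdr and Emcn of the endothelial markers, Ptprc, Cd74 and Tyrobp of the immune markers and Chga and Scg2 of the neuroendocrine markers had 0 UMIs, which for 3 counts of 13156142 UMIs allows up to 0.228 CPM. Of 9 superficial markers, 5 of which the rule capped, Tgm3 and Sprr3 passed 20 CPM. Members with both Xist and Y-linked UMIs were 10.7%, against 6.38% of low-keratin and 8.93% of high-keratin cells.

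AP-1 dimers bind TGANTCA with C or G at N, Notch's partner Rbpj binds GTGGGAA, and TATAAA is the TATA box. Any letter was allowed at N here, so shares for TGANTCA are not shares of AP-1 sites alone. These 3 motifs were searched on both strands, allowing overlaps, in RefSeq promoters of GRCm38.p6 from 250 bases before to 50 after the gene start; TGANTCA reads the same on both strands. Among 374 of the 510 higher genes matched in that table, 11.2% held TGANTCA, against 4.36% of 5919 measured genes and 7.93% of all 27025 promoters. Of the 24 matched genes that the naming rule took as higher than either other range, 1 (4.17%) held it. That set is not part of the 510: it takes in genes such as Krt14 and Col17a1, higher than in high-keratin but lower than in low-keratin cells. Its share is therefore not comparable with 11.2%. For GTGGGAA the shares were 7.75%, 5.88% and 6.39%, and for TATAAA 9.63%, 6.54% and 14.2%. Of the 4 markers with an entry, Kcne3, Krtdap and Krt13 held TGANTCA and Notch1 held none of the 3. The match was TGAGTCA in Krtdap but TGAATCA, which lacks the C or G at N, in Kcne3 and Krt13. The 250 bases before the RefSeq start of Krtdap and Krt13 are shown because these markers of the class hold more than 1 of the motifs, 5' to 3' on the gene's strand, with capitals for the matches. They lie at chr7:30787655-30787904 on the plus strand for Krtdap and chr11:100121567-100121816 on the minus strand for Krt13.
Krtdap: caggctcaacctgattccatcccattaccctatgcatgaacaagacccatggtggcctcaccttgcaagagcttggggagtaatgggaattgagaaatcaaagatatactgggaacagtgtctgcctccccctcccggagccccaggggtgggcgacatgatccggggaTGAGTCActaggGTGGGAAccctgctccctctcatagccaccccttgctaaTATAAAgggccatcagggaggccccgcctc
Krt13: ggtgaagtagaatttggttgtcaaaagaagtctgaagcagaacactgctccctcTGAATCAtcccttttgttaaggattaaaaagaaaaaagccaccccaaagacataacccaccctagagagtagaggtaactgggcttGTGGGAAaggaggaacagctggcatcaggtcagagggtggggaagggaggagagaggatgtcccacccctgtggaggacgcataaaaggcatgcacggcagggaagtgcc
In Krtdap all 3 motifs stood in a row before the start, and in Krt13 TGANTCA and GTGGGAA. The window of Kcne3 held TGANTCA alone. A match is a run of letters, not a bound site.

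The same rule applied to the p63-KO library found 151 cells of 2422 that passed the filter and no cell at 200 CP10K or more under the same limits. Of 295 p63-KO cells within the keratin bounds, 139 were over the surface-layer limit, 135 of them by Ltf (lactoferrin) alone. The 151 cells were deeper (median 37321 UMIs) and lower in Krt13+Krt4 (median 81.4 CP10K against 121 in the members), so values are set side by side. Krt5 had 0 UMIs in them, at least 1466-fold below the members' 658 CPM by a floor of 3 counts over the group. Krt14 was at 1.35 CPM against 178, Krtdap at 2.69 (1.60 to 4.26) against 207, and Notch1 at 11.4 (8.96 to 14.2) against 198. Kcne3 went the other way, 105 CPM (97.1 to 113) against 23.9, and was at 71.6 CPM in p63-KO cells under 40 CP10K. So of the 3 markers outside the rule, Kcne3 alone was found in the p63-KO cells at the members' level or above.

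Counts over the whole table were 827 of 7349 genes (11.3%) at least 2-fold higher in the p63-KO cells and 547 (7.44%) lower. Squamous differentiation genes were lower in 16 and higher in 4 of 26 measured, with Calml3 at 41.9 CPM against 881, Krt6a at 16.6 against 698, Ly6d at 456 against 1242 and Mal at 1019 against 507. Desmosome genes were lower in 6 and higher in 1 of 9, with Dsg3 at 22.6 CPM against 544. Hes1 was at 211 CPM against 349.8 and Nrarp at 6.14 against 54.3. Krt15 differed little, 7339 CPM against 7759. Trp63 was read at 148 CPM against 193, and because the counted 3' end may lie outside the targeted part of the gene, this value checks no label. Of 16 measured membrane mucin and surface genes 10 were higher and 1 lower, with Muc1 at 214 CPM against 1.82. Other simple-epithelium and mucous genes at higher levels, chosen after their values were seen, were Krt18 (1251 against 137 CPM), Agr2 (593 against 4.03) and Tff2 (492 against 0.152).

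**Figure D5:**
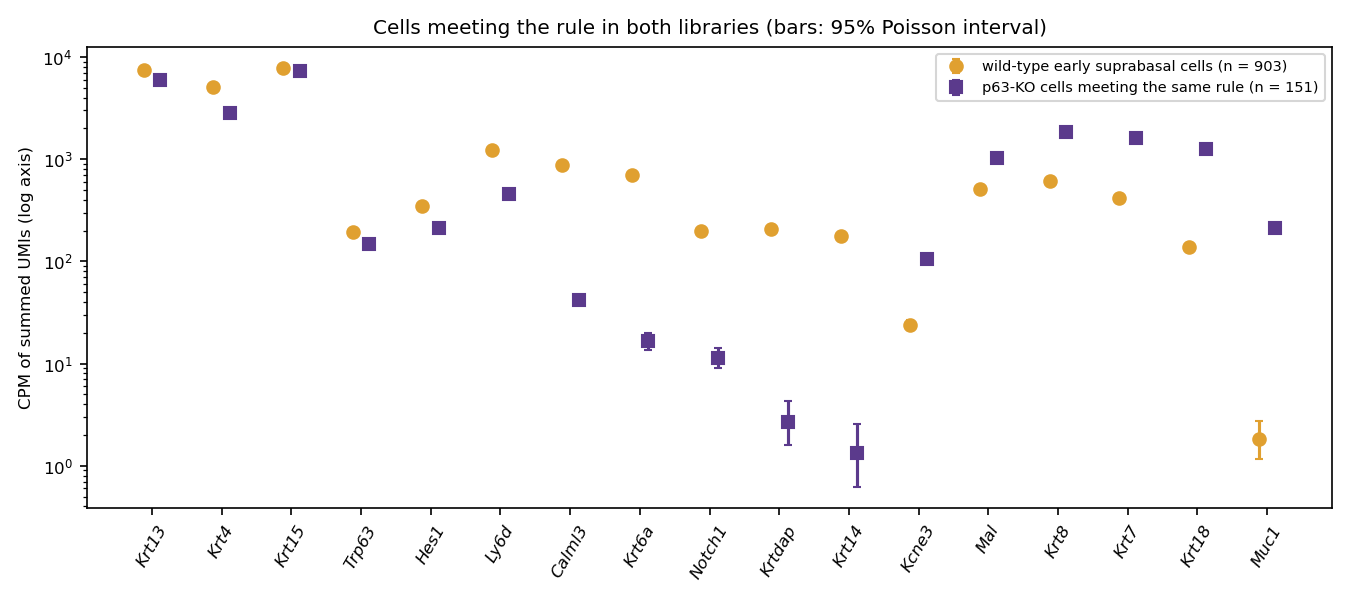
Levels of 17 genes (CPM of summed UMIs, log axis) in 903 wild-type early suprabasal cells (circles) and 151 p63-KO cells that meet the same rule (squares), 1 library each; bars are 95% Poisson intervals, smaller than most symbols. Notch1, Krtdap, Krt14, Krt6a and Calml3 are lower in the p63-KO cells, Kcne3, Mal, Krt18 and Muc1 are higher, and Krt15 is nearly the same.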

How the data were processed

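The values deposited by the authors are raw UMI counts per gene and barcode, 1 matrix per library, per the file headers and values; Cell Ranger 7.1.0 and build mm10 are named in the submitters' processing notes. The annotation release, how cells were called and whether introns were counted: not given in the sources used here. Gene start positions are RefSeq's for GRCm38.p6, the same assembly as mm10. Barcodes needed 500 genes, 1000 UMIs and a mitochondrial share of 10% or less. Doublets were not removed in the values reported; removing the highest scores was an alternative. The members, gene lists and rules were chosen with earlier results of these data known. Ranges were compared by CPM of summed counts with exact Poisson and conditional binomial intervals (Python 3.11.15, scipy 1.17.1, scikit-learn 1.9.0), with no test, since cells are not replicates. The calculation was tested on simulated summed counts with known ratios and counting error only. These held no variation between cells or embryos and no choice of ranges, so that test says nothing about either. Genes named are the rule's and marker genes, those highest or lowest in members against both ranges, the 10 most extreme in each direction of each comparison at 100 CPM or more, and from each list the members with the largest ratios or 500 CPM; list members named beyond these were chosen after their values were seen. Some results are not reported here.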

Additional observations from a re-analysis of the deposited data

How the results depend on the processing

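All 213 ratios of at least 2-fold among the named genes kept their sign under each alternative that gave a value (7 to 13 per ratio), and so did 11 of 12 list medians of that size. The exception was the mitosis list against high-keratin cells, 1.51 in all cells and -0.0797 in cells with Y-linked and no Xist UMIs. Without the other exclusions in the low and high ranges, 296 genes were 2-fold lower than in high-keratin cells, 28 were highest and 9 lowest in members. With bounds of 80 to 150 CP10K there were 463 members and 1 lowest gene. Genes measured from 5 CPM gave 770 higher and 808 lower than in low-keratin cells, 682 higher than in high-keratin cells, 20 highest and 3 lowest, as more genes are then measured. Genes from 100 CPM gave 175 higher and 111 lower than in low-keratin cells, 47 higher and 82 lower than in high-keratin cells and 5 highest, as fewer are measured. Cells with Xist only left 577 members, and cells with Y-linked UMIs only 206, with 32 genes highest and 14 lowest. The cause of the other shifts was not tested. All other counts stayed within 1.5 times, among them 579 and 500 genes against low-keratin and 337 and 207 against high-keratin cells without the 50 most abundant genes. Notch1 was among the highest genes in all 13 and Kcne3 in 12, since it is under 100 CPM. No paired analysis was possible because each genotype has 1 library. Genotype, library and embryo cannot be told apart, and low levels are limited by depth: 3 counts in the members are 0.228 CPM.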
